A study of Rattus norvegicus with 6 samples.

Results

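The Chd2 locus was examined as 40047 nucleotides of rat chromosome 1, from 128634487 to 128674533 on the rn4 build, in whole-genome bisulfite sequencing (WGBS) of hippocampus. It consists of a window of 47 nucleotides, from 128654487 to 128654533, and 20 kb on either side. The window is one of the differentially methylated regions (DMRs) that the study shows, so it was chosen by its difference between the groups in these same samples. Its difference is therefore given as a description with no test. The 6 samples together listed 388 CpGs in the locus, of 22152541 CpGs in all, and 7 of the 388 lie in the window. Positions are those the files list, and the sources used here do not say whether they count from 0 or from 1.

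The samples were hippocampi of Sprague-Dawley rat pups (CD1 Sprague-Dawley in the study's methods) at postnatal day 15, with 3 animals in each group. Iron-deficient pups came from dams on a diet with 4 ppm iron from gestational day 2, which were moved to the control diet with 200 ppm iron at postnatal day 7. Iron-sufficient pups came from animals kept on the 200 ppm diet throughout, and the labels name no transgene or deletion. Both groups were thus on the control diet from postnatal day 7 to sampling. The sources used here do not say whether the 3 pups of a group came from separate litters or what sex they were, and the tissue label could not be checked against marker genes because no expression was measured. The comparison asks whether iron deficiency in the fetal and neonatal period goes with different DNA methylation at this locus.

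Chd2 encodes a chromodomain helicase, an ATP-driven enzyme that moves nucleosomes and so changes which DNA is open to transcription factors. It is expressed in neurons and their precursors, and loss of one copy in people is a known cause of childhood epilepsy with intellectual disability. In mammalian DNA most CpGs outside CpG-rich regulatory stretches carry methylated cytosine. Bisulfite turns unmethylated cytosine into a base read as T, so the methylation level of a CpG is the percentage of its reads that still show C. The assay reads 5-hydroxymethylcytosine, which is abundant in brain, as methylated, and it reads a C-to-T sequence difference as unmethylated. In the hippocampus a sample is a mixture of cell types, so a change in the share of a cell type and a change within cells cannot be told apart.

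The gene name rests on the study's text and figure panel, which print Chd2, whereas the figure legend prints Cdh2, the gene of N-cadherin, a neuronal adhesion molecule. In the RefSeq annotation of another rat assembly, GRCr8, Chd2 lies on the same chromosome as the window, between the protein-coding genes Rgma and Fam174b, and Cdh2 lies on another chromosome. Only the gene order was taken from that annotation. The exon or intron that the window occupies was not analysed here, since no annotation of rn4 was used.

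Depth set what could be seen. Total coverage over all CpGs ranged from 432692526 to 780127386 per sample, with a median of 17 to 33 reads per CpG. In the locus the median was 17 to 31 reads, and each sample listed between 302 and 377 of the 388 CpGs. All 6 samples listed 206 of them (53.1%). A coverage of at least 10 in every sample, the minimum used throughout unless stated, was reached at 63 CpGs (16.2%), against 4686933 of all CpGs (21.2%). These were the 7 of the window and 56 in the flanks. Coverage of the window itself was not unusual, since its mean of 20.4 to 73.7 reads lay at the 58.1 to 83rd percentile of the CpGs of each sample.

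Over the 7 CpGs of the window, iron-sufficient animals had 22.6%, 45.2% and 4.9% of reads methylated (24.2% ± 20.2, SD, n = 3). Iron-deficient animals had 83.1%, 89.1% and 78.3% (83.5% ± 5.42, SD, n = 3). Every iron-deficient animal was above every iron-sufficient one, and the means differed by 59.3 percentage points. The groups also differed in how much their animals varied, since the iron-sufficient ones lay farther apart than the iron-deficient ones.

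The 7 CpGs lie 2, 4, 2, 8, 18 and 12 nucleotides apart, a span shorter than one sequencing read, so they shared reads and are not independent measurements. At CpG 1, at 128654487, methylation was 25%, 47.2% and 0% in iron-sufficient replicates 1, 2 and 3 and 84.4%, 85% and 85.3% in iron-deficient replicates 1, 2 and 3. CpG 2, at 128654489, read 25.7%, 47.2% and 2.78% against 83.6%, 85% and 85.2%. CpG 3, at 128654493, read 19.4%, 47.2% and 2.86% against 83.6%, 89.9% and 79.2%. The iron-deficient animals were nearly alike at CpGs 1 and 2 and less so at CpG 3, and at all 3 CpGs iron-sufficient replicate 2 stood between them and the other two iron-sufficient animals.

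CpG 4, at 128654495, read 25.7%, 69.8% and 27.8% in the iron-sufficient animals and 83.6%, 88.8% and 76.5% in the iron-deficient ones. It was the place where the groups came closest, where iron-sufficient replicate 2 had 37 of 53 reads methylated and iron-deficient replicate 3 had 13 of 17. CpG 5, at 128654503, read 24.2%, 50% and 0% against 85.2%, 89.9% and 76.5%. CpG 6, at 128654521, read 10.3%, 0% and 0% against 80.5%, 91.2% and 61.5%. CpG 7, at 128654533, read 27.3%, 0% and 0% against 79.5%, 92.3% and 63.6%. The groups did not overlap at any of the 7 CpGs, whereas they did not overlap at 5.11% of all CpGs tested. The window was chosen by this contrast, so nothing is read from that count.

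The coverage-weighted differences ranged from 40.4 percentage points at CpG 4 to 81.6 at CpG 6. The study called DMRs by WWE, a method that weights each animal by its coverage and extends a region from CpG to CpG. Its criteria for a CpG are a coverage of 10 or more in every sample, weighted means that differ by 10 percentage points or more, and a p of 0.05 or less. They were met by 6 of the 7 CpGs, the exception being CpG 4, against 3.21% of all CpGs tested. The window was called on these criteria in these samples, so nothing is read from this count. The region that WWE called here ran from the first to the last of the 7 CpGs with a weighted difference of 59.7 percentage points, and it was the only DMR called in the locus, of 2713 called in the genome by the implementation of WWE used here. Where a CpG below the minimum coverage ended a region, the implementation called 435, and the region over the window was still called. It depended on having all 3 iron-sufficient animals: with any of them left out no DMR was called in the window, although the difference between means was then still 49.6 to 69.8 percentage points.

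Counts behind the window differed between animals. At CpG 1 the reads numbered 36, 53 and 36 in the iron-sufficient animals and 45, 60 and 34 in the iron-deficient ones. At CpG 7 they numbered 22, 18 and 32 and 39, 78 and 11, fewer than at CpG 1 in every animal but iron-deficient replicate 2. The lowest coverage, 11 reads in iron-deficient replicate 3, allowed a level between 30.8% and 89.1% (exact 95% binomial interval). At CpG 6 the 0 of 23 reads of iron-sufficient replicate 2 allowed a level of up to 14.8%. These intervals cover counting error only, since PCR copies of a molecule are not independent.

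In some animals the level changed in a step together with the coverage. In iron-sufficient replicate 2 the methylated reads went from 25 of 50 at CpG 5 to 0 of 23 at CpG 6, which lies 18 nucleotides on. Its CpGs 1, 2 and 3 had the same 25 of 53 reads. For iron-deficient replicate 1, CpGs 2, 3 and 4 had the same 46 of 55 reads. Over the 6 animals, 7 of the 36 pairs of neighbouring window CpGs had the same coverage and the same methylated reads, as had 50 of the 224 pairs in the cluster described next. Duplicate reads were not examined, because the sources used here do not say whether the authors removed them.

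The window was found to be a slice of a denser stretch. A cluster of 40 CpGs with gaps of at most 50 nucleotides, a rule set after the values were seen, ran over 303 nucleotides from 128654419 to 128654721. It held 10.3% of the CpGs of the locus at 13.2 CpGs per 100 nucleotides, against 0.969 in the locus as a whole. Neighbouring CpGs were a median of 6 nucleotides apart in it and 60 in the locus. It was the largest of the 9 clusters of at least 5 CpGs in the locus, and the next had 10 CpGs. Coverage also differed within the cluster, since all 7 window CpGs had at least 10 reads in every sample, against 3 of the 11 before it and 0 of the 22 after it.

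Over the whole cluster, with no minimum coverage, iron-sufficient animals had 50.9%, 71.7% and 6.36% of reads methylated (43% ± 33.4, SD, n = 3). Iron-deficient animals had 80.4%, 85.9% and 76.9% (81.1% ± 4.54, SD, n = 3). The groups still did not overlap, but the difference was 38.1 percentage points, and iron-sufficient replicate 2 came within a few points of iron-deficient replicate 3. Since iron-sufficient replicate 2 had no reads from 128654651 on, the animals were compared over unlike CpGs. At the 30 CpGs of the cluster that all samples listed, iron-sufficient animals had 41%, 71.7% and 6.04%. Iron-deficient animals had 81.1%, 87.7% and 75.3% there, and the difference was 41.8 percentage points.

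**Figure D1:**
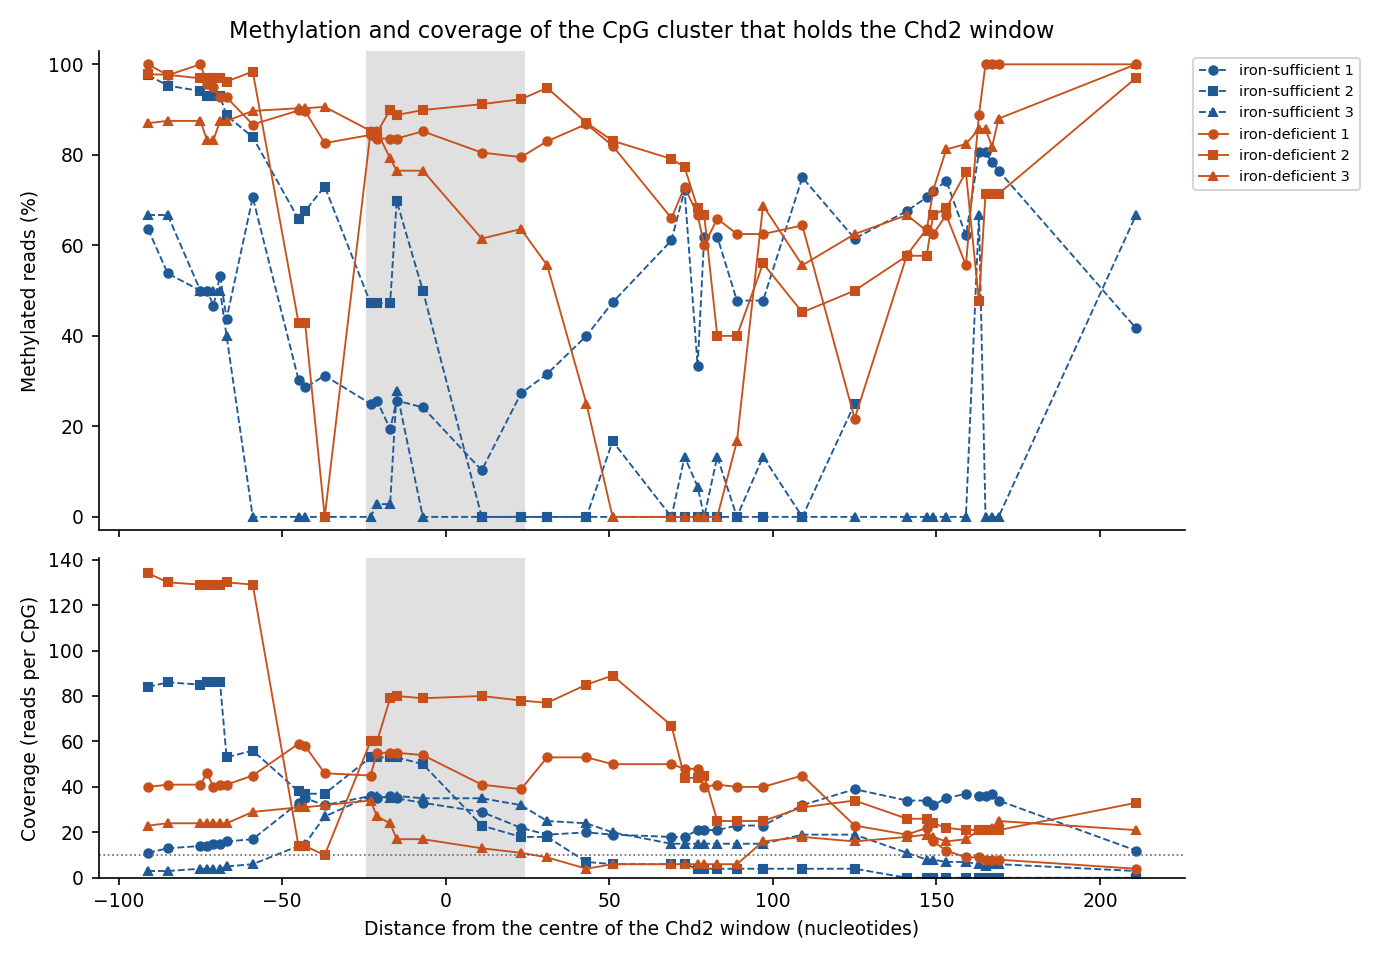
Percentage of methylated reads (upper panel) and coverage in reads per CpG (lower panel) at the 40 CpGs of the cluster, against distance from the centre of the Chd2 window in nucleotides. Each line is 1 animal, iron-sufficient in blue and iron-deficient in orange, the grey band is the window and the dotted line is a coverage of 10. Inside the band the groups lie apart at all 7 CpGs, and on both sides of it single animals cross over to the other group. The window was chosen by its difference between the groups, so nothing is read from this contrast.

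Just before the window the groups overlapped. Over the 11 CpGs from 128654419 to 128654473 iron-sufficient animals had 42.8%, 89.2% and 15.7% and iron-deficient animals 92.6%, 94.9% and 87.9%. Iron-sufficient replicate 2, the deepest of its group there with a mean of 66.7 reads, was above iron-deficient replicate 3, and iron-sufficient replicate 3 had a mean of only 8.09 reads. The last of the 11 CpGs, 14 nucleotides before the window, passed the coverage minimum. It read 31.2%, 73% and 0% in the iron-sufficient animals and 82.6%, 0% and 90.6% in the iron-deficient ones. The 0% belonged to iron-deficient replicate 2, from 0 of 10 reads, in an animal that read 98.4% of 129 reads at 128654451. Coverage of that animal went from 129 to 14 reads within 14 nucleotides, the largest step of any animal in the cluster.

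Just after the window coverage ran out in part of the animals. The first CpG beyond it, at 128654541, had levels close to those of CpG 7, with 31.6%, 0% and 0% against 83%, 94.8% and 55.6%, but only 9 reads in iron-deficient replicate 3. Over the 12 CpGs after the window that all samples listed, iron-sufficient animals had 54.7%, 2.82% and 3.3% and iron-deficient animals 68.9%, 73.3% and 36.2%. Iron-sufficient replicate 1 was above iron-deficient replicate 3. Coverage was thin, since iron-sufficient replicate 2 averaged 5.92 reads there and iron-deficient replicate 3 averaged 8.75. With all 22 CpGs after the window, listed or not in every sample, the pooled levels were 64.4%, 2.82% and 4.66% against 69.7%, 72.2% and 65.7%. They did not overlap, but iron-sufficient replicate 2 had no reads from 128654651 on, so its value is that of the 12 CpGs. The animals were thus compared over unlike CpGs, and nothing is read from this separation.

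The order of the iron-sufficient animals changed along the cluster. By pooled level, replicate 2 was the highest before the window and in it, and low after it together with replicate 3, where replicate 1 was highest. The change came inside the window, since at CpGs 6 and 7 replicate 2 read 0% and replicate 1 was highest (10.3% and 27.3%). Replicate 3 was the lowest of the 3 by pooled level before the window and in it, but not at CpG 4. The SD of the iron-deficient animals was 3.54 percentage points over the 11 CpGs before the window and 5.42 in it. After the window it was 20.3 over the 12 CpGs that all samples listed and 3.28 over all 22.

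**Figure D2:**
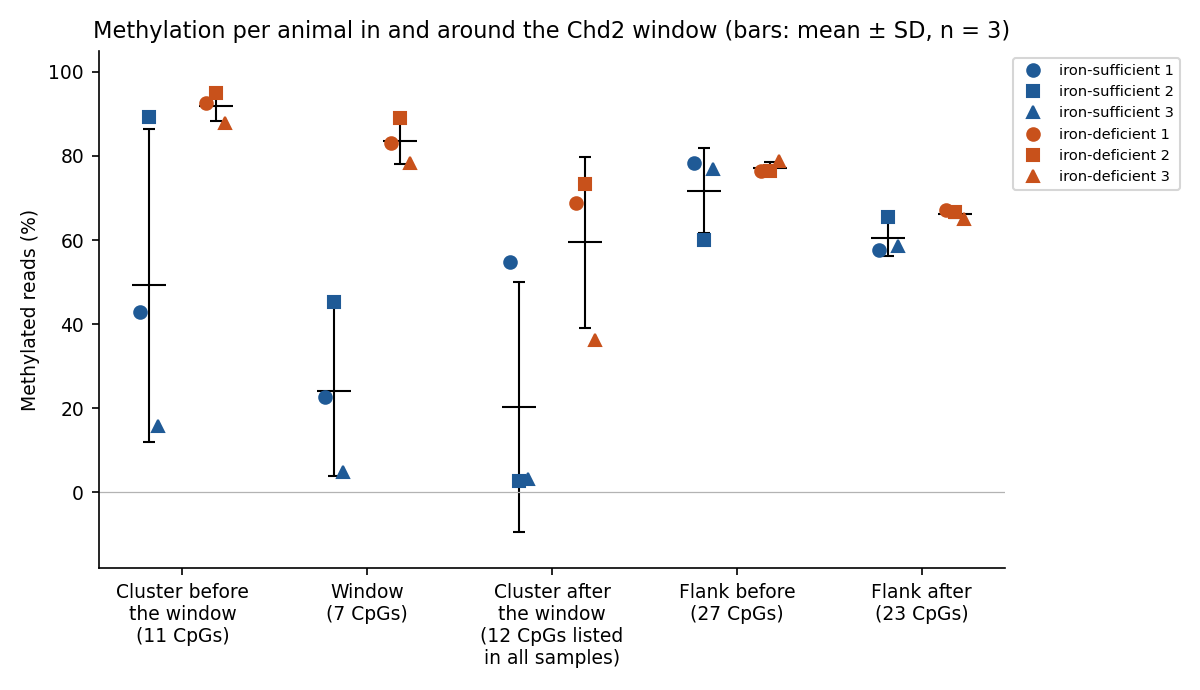
Percentage of methylated reads per animal in 5 parts of the Chd2 locus, in blue for iron-sufficient and orange for iron-deficient animals, with black bars for the mean ± SD (n = 3). The lower end of the iron-sufficient bar for the cluster after the window passes below 0 because the SD exceeds the mean. The window is the part with the widest gap between groups, single animals overlap in the cluster on both sides, and the flanks of both groups lie between 57.6% and 78.8%. The window was chosen by its difference between the groups, so nothing is read from its gap.

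Away from the window, at CpGs that did not enter its choice, the groups were closer than in the window. The flanks were taken as the 50 CpGs more than 1000 nucleotides from the window. Iron-sufficient animals had 69.2%, 62.5% and 67.9% of reads methylated there (66.5% ± 3.54, SD, n = 3), and iron-deficient animals 72.3%, 73.2% and 73.2% (72.9% ± 0.529, SD, n = 3). The animals did not overlap between groups, and the difference of 6.36 percentage points had a two-sided exact permutation p of 0.1, the smallest that 3 against 3 animals allow, with an adjusted p of 0.3 over the 3 flank comparisons. It thus could not pass a threshold of 0.05 in this design. Without iron-sufficient replicate 2 the difference was 2.41 percentage points, over the 80 CpGs that then reached the minimum coverage. Both the animals and the set of CpGs changed there. The difference was 13.7 at the 29 CpGs that reached a coverage of 15 in every sample.

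Both sides of the window showed differences of like size. Before it, 27 CpGs had 78.2%, 60% and 76.8% in the iron-sufficient animals and 76.3%, 76.4% and 78.8% in the iron-deficient ones, a difference of 5.53 percentage points (exact permutation p = 0.6, adjusted p = 0.6). Here iron-sufficient replicate 2 alone was low and the others were alike. After it, 23 CpGs had 57.6%, 65.5% and 58.7% against 67.1%, 66.6% and 65%, a difference of 5.65 percentage points (exact permutation p = 0.2, adjusted p = 0.3). On this side iron-sufficient replicate 2 was within the range of the iron-deficient animals and the other two were below it.

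Set against its own flanks, the window was lower by 46.6, 17.3 and 63 percentage points in iron-sufficient replicates 1, 2 and 3. In the iron-deficient animals it was higher by 10.9, 16 and 5.12 points. The window was thus a dip in the methylation of the locus in the iron-sufficient animals and no dip in the iron-deficient ones, as a description of the contrast by which it was chosen.

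Of the 56 flank CpGs tested, including 6 within 1000 nucleotides of the window of which 3 lie in its cluster, 0 met the WWE criteria, where 3.21% of all CpGs did. This count was not stable, since it ranged from 0 to 5 when 1 animal was left out. The 5 were among 90 CpGs without iron-sufficient replicate 2 (5.56%), where 3.62% of all CpGs met the criteria. Of the 80 among them more than 1000 nucleotides from the window, 3 met the criteria (3.75%). With a minimum coverage of 5 the count was 2 of 102 (1.96%), against 3.61% of all CpGs. The weighted difference was positive, that is, higher in the iron-deficient group, at 38 of the 56 and negative at 18, with a median of 9.19 percentage points. The 3 CpGs in the cluster, at 42.5, 43.3 and 37.6 points, lie within 22 nucleotides of the window. They can share reads with it, so they are not free of its choice. Over all CpGs tested 47% were positive, 43.5% negative and 9.56% exactly 0, and the median was 0.

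Only 1 of the 56 flank CpGs (1.79%), at 128648283, had animals that did not overlap between groups, against 5.11% of all CpGs. Its levels were 75%, 8.16% and 82.9% in the iron-sufficient animals and 100%, 98.1% and 97.8% in the iron-deficient ones. The largest differences did not separate the groups either. At 128666015, 11482 nucleotides after the window, iron-sufficient animals had 47.6%, 2.56% and 50% and iron-deficient animals 42.9%, 98.4% and 45.5%, so a single animal of each group made the difference of 52 percentage points. At 128672386 the levels were 68%, 100% and 100% against 100%, 0% and 35.1%, a difference of -56.6. These 3 CpGs were named after their values were seen.

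Animals of the same group often differed widely at the flank CpGs. The range between the 3 animals was at least 50 percentage points at 30 of 56 CpGs in the iron-sufficient group (53.6%) and at 24 in the iron-deficient group (42.9%). Over all CpGs tested these shares were 25.3% and 23.2%. The median range was 55.9 points in the iron-sufficient and 46.9 points in the iron-deficient animals, against 22.5 and 21.2 over all CpGs. In the window the median range was 44.3 points in the iron-sufficient and 12.3 in the iron-deficient animals. WWE, which chose the window, favours a small spread within groups, so nothing is read from the window's ranges.

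**Figure D3:**
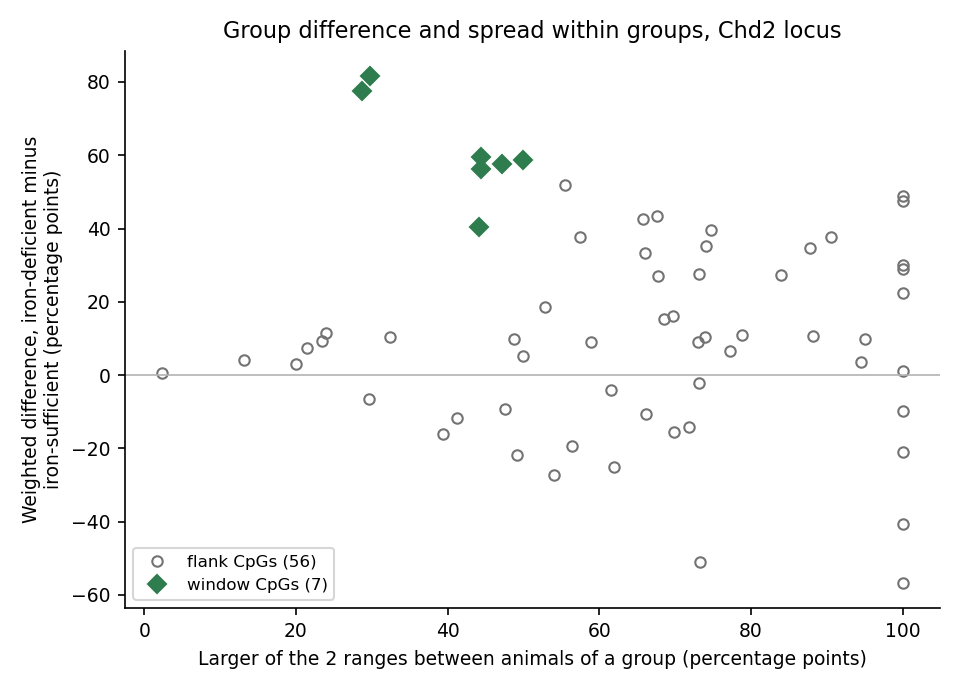
Weighted difference in methylation, iron-deficient minus iron-sufficient, against the larger of the 2 ranges between animals of a group, both in percentage points, for the 56 flank CpGs (open circles) and the 7 window CpGs (green diamonds) with a coverage of at least 10 in every sample. The window CpGs lie between 40.4 and 81.6 with ranges of at most 50 points, and the flank CpGs with large differences of either sign have larger ranges than that. The window was chosen by a test that favours a small spread within groups, so nothing is read from this contrast.

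In tiles of 1000 nucleotides, laid across the genome without regard to the window, 17 tiles that overlap the locus had at least 5 CpGs listed in all samples and 50 reads in each. The tile from 128634000 reaches past the start of the locus, and 10 of its 14 CpGs lie outside, while the other 16 tiles lie within it. Methylated and unmethylated read counts were compared over all tiles by edgeR's quasi-likelihood test. In the tile from 128654000 that holds the window and most of its cluster, 34 CpGs gave 49.7%, 71.7% and 15.9% in the iron-sufficient animals (45.8% ± 28.1, SD, n = 3). They gave 79.8%, 84.6% and 73.8% in the iron-deficient ones (79.4% ± 5.4, SD, n = 3). The animals did not overlap, with iron-sufficient replicate 2 and iron-deficient replicate 3 close to each other, and the difference of 33.6 percentage points was equalled or passed in size by 0.302% of all tiles. It depended on single animals, since it was 18.7 without iron-sufficient replicate 3, a size that 8.67% of all tiles then reached, and 46.5 without iron-sufficient replicate 2 (0.0249%). This tile shares the contrast that chose the window and is a description. The tiles on either side of it had too few CpGs with coverage and were not tested.

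None of the other 16 tiles had an unadjusted edgeR p under 0.05, where 3.01% of 894922 tiles did, and limma on log2 ratios also gave 0 of 16. By edgeR's quasi-likelihood test with Benjamini-Hochberg adjustment 0 tiles of the whole genome had an adjusted p under 0.05, as by limma, while 26923 by edgeR and 38806 by limma had an unadjusted p under 0.05. The animals overlapped between groups in all 16 tiles, whereas in 10% of all tiles they did not. The difference was positive in 13 of the 16, with a median of 8.22 percentage points, against 53.9% of all tiles and a median of 0.744. Without iron-sufficient replicate 2 it was positive in 9 of 16 with a median of 6.03, and without iron-sufficient replicate 3 in 10 of 16 with a median of 4.1. Without any other single animal it was positive in 12 to 15 of 16, with medians of 5.86 to 9.34. In the 15 tiles that lie wholly within the locus, without that of the window, it was positive in 12, with a median of 8.04. The smallest unadjusted edgeR p among the 16, 0.0723 (adjusted p = 1), belonged to the tile from 128634000, most of whose CpGs lie before the locus, which had 80.1%, 51.5% and 69.6% in the iron-sufficient animals and 86%, 88% and 79.5% in the iron-deficient ones.

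**Figure D4:**
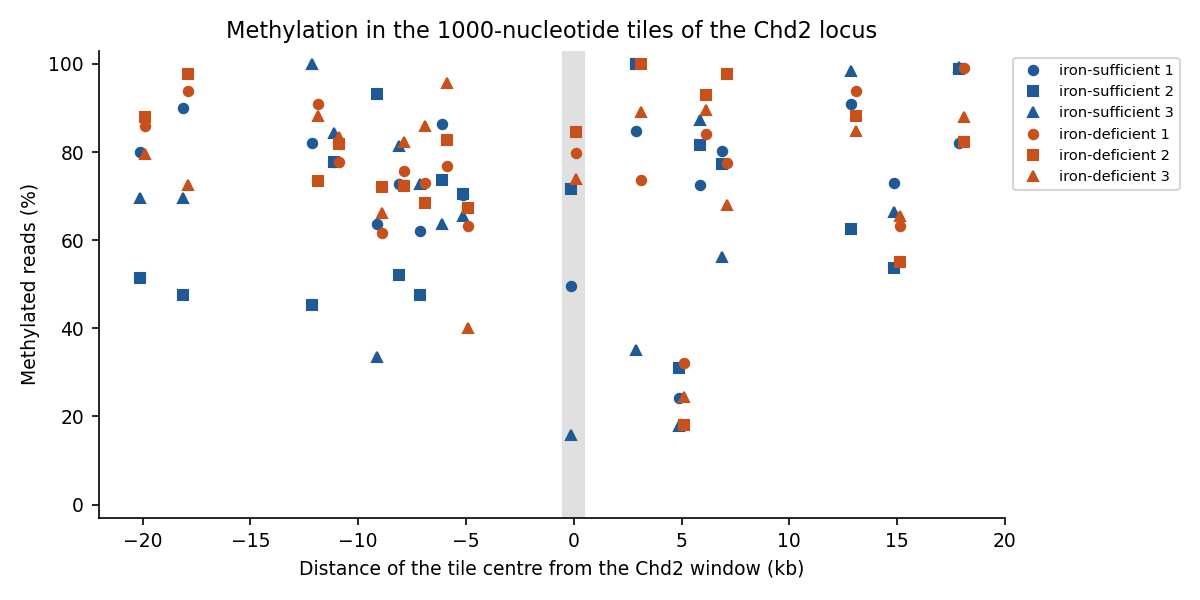
Percentage of methylated reads per animal in the 17 tested tiles of 1000 nucleotides, against the distance of the tile's centre from the Chd2 window in kb, with iron-sufficient animals in blue and iron-deficient animals in orange. The grey band is the tile that holds the window, the only one of the 17 in which the groups do not overlap, and all 6 animals are low in 1 tile about 5 kb after it. The groups do not overlap in 10% of all tiles. The banded tile shares the contrast that chose the window, so nothing is read from its separation.

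Among the 16 other tiles, the levels of the 6 animals were closest to those of the window's tile, by root mean square difference, in the tile from 128645000 (15.9 percentage points). It had 63.6%, 93.1% and 33.6% in the iron-sufficient animals and 61.6%, 72% and 66.1% in the iron-deficient ones. The order of the iron-sufficient animals was the same as in the window's tile, replicate 2 above replicate 1 above replicate 3, while the group means differed by 3.14 percentage points, a value that was 18 without iron-sufficient replicate 2 and -11.8 without iron-sufficient replicate 3. The next closest were the tiles from 128661000 (21.7 percentage points) and 128657000 (22 percentage points). The latter had 84.7%, 100% and 35.1% against 73.7%, 100% and 89%, with iron-sufficient replicate 3 the low animal. These tiles were picked by the likeness of their levels, so nothing is read from a shared order or a shared low animal. In other tiles, such as those from 128646000 and 128647000, iron-sufficient replicate 2 was the lowest of its group.

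The least methylated tile of the locus was not that of the window but the one from 128659000, which starts 4467 nucleotides after the window. It had 24.3%, 31% and 17.9% in the iron-sufficient animals (24.4% ± 6.53, SD, n = 3). In the iron-deficient ones it had 32.1%, 18.1% and 24.4% (24.9% ± 6.99, SD, n = 3), a difference of 0.448 percentage points (edgeR unadjusted p = 0.967). All 6 animals were low there, with at least 34.3 reads per CpG on average. Of its 7 CpGs listed in all samples, the one at 128659560 had 0 methylated reads in 5 animals and 1 of 43 in iron-deficient replicate 3, and the one at 128659503 had 0 in all 6. The CpG at 128659020 was methylated at 56% to 100%, so the low level did not extend to the start of the tile. Levels differed widely between animals at 128659362 (0% to 73.9%), 128659392 (0% to 72.9%) and 128659675 (0% to 86.8%).

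Among the tiles tested, that of the window was the next lowest, at a mean of 62.6% over the 6 animals. The tiles from 128649000 and 128669000 followed at 62.8% each. In the tile from 128649000 the iron-sufficient animals had 70.3%, 70.4% and 65.4% and the iron-deficient animals 63.2%, 67.3% and 40.1%, and the difference of -11.9 percentage points went against that of the window (edgeR unadjusted p = 0.408), but it was -3.46 without iron-deficient replicate 3. In the tile from 128669000 the levels were 72.9%, 53.8% and 66.3% against 63.3%, 55% and 65.5%, with the groups overlapping.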

How the data were processed

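Per the study's methods, libraries of hippocampal DNA were bisulfite-converted and sequenced as paired or single reads, and the sources used here do not say which for each sample. The authors trimmed adapters, aligned reads to rn4 with BS Seeker, used the first read where mates overlapped and merged both strands of a CpG. The deposited values are, for each CpG and sample, a methylated fraction and a coverage in counts of reads, neither normalized. The sources used here do not say whether duplicates were removed.

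Methylated reads were the product of fraction and coverage. Levels of a region are summed methylated reads over summed coverage, given as percent. WWE was rewritten in Python 3.11.15 (numpy 2.4.6, scipy 1.17.1, pandas 2.3.3, numba 0.67.0) from the study's description, with a minimum coverage of 10, a minimum difference of 10 percentage points, a p-value threshold of 0.05, at least 5 CpGs, up to 5 consecutive similar CpGs and gaps of up to 20000 nucleotides. CpGs below the minimum coverage were skipped. Tiles of 1000 nucleotides with at least 5 CpGs listed in all samples and 50 reads in each were tested on methylated and unmethylated counts by edgeR 4.0.16 (quasi-likelihood, R 4.3.3) over all tiles, with limma 3.58.1 as an alternative. Both scripts were tested on simulated data. The simulated WWE reads had only counting error between animals of a group, so the spread seen here was not covered. Flank levels were tested by exact permutation of the animals, two-sided.

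Groups and replicate numbers came from the labels. The locus, the rules for the CpGs and tiles named, and the tests were chosen with earlier results of these data known. Named were the 7 window CpGs, flank CpGs that met the WWE criteria without overlap between groups (there were 0), the tile of the window and its neighbours, tiles with an unadjusted p under 0.05, the 3 tiles most like that of the window and up to 3 of lowest methylation. No sequence is shown because no rn4 genome was used.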

Additional observations from a re-analysis of the deposited data

How the results depend on the processing

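The difference in the window kept its direction under all 15 alternatives. In 14 it moved by less than the larger SD between animals, the 20.2 points of the iron-sufficient group, which is a wide margin. A minimum coverage of 5 and no minimum coverage kept the same 7 CpGs and so could not change it. Values ranged from 49.6 to 69.8 percentage points when 1 animal was left out, and over the whole cluster of 40 CpGs, chosen after seeing the data, the difference was 38.1. Over the CpGs of the cluster before the window it was 42.5, and after it 39.2 (12 CpGs) or 45.2 (22 CpGs), also chosen after seeing the data. Iron-sufficient replicate 2 had no reads at part of the 22, and so at part of the 40. At the 30 CpGs of the cluster that all samples listed, the difference was 41.8. The window was chosen by WWE on these samples, so neither the kept direction of its difference nor calling it again is independent support. Its DMR had 54.5 to 60.9 percentage points under the settings of coverage, weighting and similar CpGs tried, and 55.9 to 62.5 when an iron-deficient animal was left out. No DMR was called without iron-sufficient replicate 1, 2 or 3, or with a p-value threshold of 0.01. The cause of these losses was not tested.

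The flank difference stayed positive under all 13 alternatives, at 2.41 to 13.7 percentage points, and none could give a p under 0.1. Without each animal in turn it ranged from 2.41 to 7.74, over 54 to 80 CpGs against 50 in the main setting. The coverage minimum was applied to the animals left, so the set of CpGs changed too. The number of flank CpGs that met the WWE criteria, 0 in the main setting, was 2 with a minimum coverage of 5 and 0 to 5 without each animal in turn. The share of all CpGs that met them was 3.61% with that minimum and 3.3% to 3.82% without each animal in turn. The 2 with a minimum coverage of 5 lay within 1000 nucleotides of the window. Without iron-sufficient replicate 2, 3 of the 80 CpGs beyond that distance met the criteria (3.75%). The number of tiles other than that of the window with an unadjusted p under 0.05, also 0, was 1 without iron-sufficient replicate 1 (the tile from 128634000, with 10 of its 14 CpGs outside the locus), 1 without iron-deficient replicate 3 (the tile from 128636000) and 0 otherwise, so that the range without each animal in turn was 0 to 1. Of all tiles, 3.78% had an unadjusted edgeR p under 0.05 without iron-sufficient replicate 1 and 3.44% without iron-deficient replicate 3. The cause was not tested.

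Both groups have replicates numbered 1 to 3. Deviations of same-numbered animals over 894922 tiles had correlations of 0.005, 0.002 and 0.003, against -0.004 to 0.001 for the other pairs. The labels give only the number, and these correlations cannot show whether same-numbered animals shared a litter or batch. With the replicate block the flank difference was 6.36 percentage points with an exact sign-flip p of 0.25, the smallest that 3 pairs allow. Under the replicate block 0 of the 16 locus tiles other than that of the window had an unadjusted edgeR p under 0.05. Over all tiles the block moved the number with such a p from 26923 to 24916.

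Most CpGs of the locus missed the coverage minimum in at least 1 animal, including all 22 after the window in its cluster. With a minimum coverage of 5 the DMR ran on to 9 CpGs and had a difference of 60.6 percentage points.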
